A study of Mus musculus with 8 samples.

Results

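This account concerns 41 genes of axon guidance in the embryonic mouse brain: the Eph receptors, their ephrin ligands, the Slits and their Robo receptors, and the netrins with the receptors Dcc, Neo1 and Unc5. They are the protein-coding rows of the deposited gene table whose symbols are those of *Epha*, *Ephb*, *Efna*, *Efnb*, *Slit*, *Robo*, *Ntn*, *Ntng*, *Unc5*, *Dcc* or *Neo1*, which makes 41 of 33971 listed genes, 18030 of them protein coding. The rule used names alone and no measured value, but these families were chosen with earlier results of these data known. By family they are 9 EphA receptors, 5 EphB receptors, 5 ephrin-As, 3 ephrin-Bs, 3 Slits, 4 Robos, 4 netrins, 2 netrin-Gs, 4 Unc5 receptors, and Dcc with Neo1.

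Whole brains of wild-type embryos were taken at E14.5 (the embryonic day) from wild-type dams fed either a choline-deficient diet (CDD, 4 brains) or normal chow (ND, 4 brains), and their poly-A RNA was sequenced in bulk. The diet was started at mating according to the methods, while a legend of the study places its start before mating. The diet was the mother's, and how many dams and litters gave the 4 brains of a diet is not stated, so p-values measure only the spread between these samples. Gene counts summed to 31770217 to 43121170 per brain, and the 41 genes had at least 10 counts in every brain and all passed the filter on low counts. CDD replicate 2 stood apart: 11 marker genes of caudal hindbrain and spinal cord summed to 127.8 CPM (the count scaled to library size) there and to 3.83 to 7.97 CPM in the 7 other brains, in which *Hoxa5* and *Hoxb5* were at 0, and results without that brain are given where they differ.

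Guidance cues steer growing axons and migrating neurons by attraction and repulsion. Ephrins are bound to the cell membrane and signal on contact to Eph receptor tyrosine kinases and back into the cell that carries them. Slits are secreted repellents read by Robo receptors, and netrins are secreted cues that attract through Dcc and repel through Unc5 receptors. In the brain at this age, these families help to place midline crossings, long tracts and topographic maps, and several members also act in blood vessels.

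The diets were compared in all genes with edgeR's quasi-likelihood test, adjusted by Benjamini-Hochberg over 19367 genes, and a gene is called at an adjusted p-value under 0.05. Of the 41 guidance genes, 10 (24.4%) were called, beside a background of 8.83% of all genes tested. *Robo3*, *Ntn4*, *Dcc*, *Epha3*, *Slit2* and *Epha4* rose in CDD brains (14.6% of the 41, background 4.24%), and *Efna3*, *Epha8*, *Unc5a* and *Efnb3* fell (9.76%, background 4.59%). At an unadjusted p-value under 0.05 there were 17 (41.5%, background 23.9%). The diets did not overlap in 13 genes (31.7%, background 15.0%), with all 4 CDD brains on top in 8 (19.5%, background 7.65%) and at the bottom in 5 (12.2%, background 7.39%). The changes were small: the log2 fold changes, given here as CDD over ND, ran from -0.48 to 0.43, and the 2 ends were the low-count gene *Ntn5* and *Robo3*. The median log2 fold change of the 41 was 0.03 against -0.00378 for all genes, with 25 genes above 0 and 16 below. In bulk RNA, a change in the share of cells that express a gene and a change in its RNA per cell cannot be told apart.

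**Figure D1:**
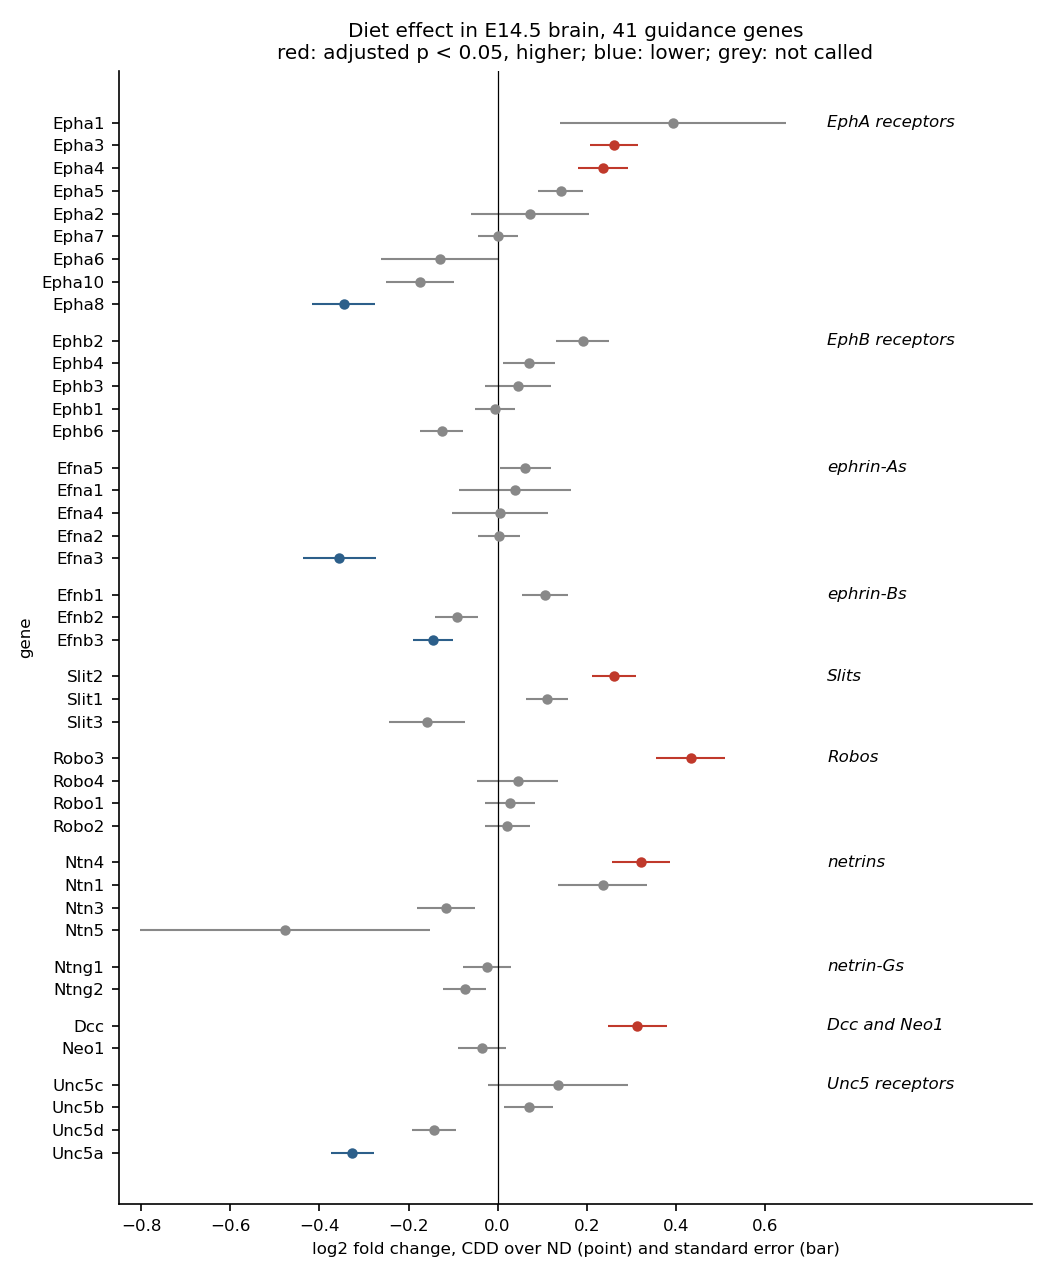
Log2 fold change of CDD over ND (horizontal axis) for the 41 guidance genes, grouped by family, with bars for the standard error of edgeR's fit. The 6 red genes, from *Epha4* at 0.24 to *Robo3* at 0.43, and the 4 blue genes, from *Efna3* at -0.36 to *Efnb3* at -0.14, passed the threshold, and the grey genes did not.

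Among the netrins and their receptors, *Ntn4* and *Dcc* rose and *Unc5a* fell. *Dcc* (ENSMUSG00000060534, chromosome 18, 71386705 to 72484140), the receptor through which netrin-1 attracts axons, was at 273, 266, 249.8 and 322 CPM in CDD replicates 1 to 4 and at 220.1, 243, 214 and 216 in ND replicates 1 to 4. Positions of genes are those the authors list, on a genome build they do not name. All CDD brains were above all ND brains, with CDD replicate 4 highest. The means were 278 ± 30.9 and 223 ± 13.2 CPM (SD, n = 4 each), a log2 fold change of 0.31 (standard error, SE, 0.067, edgeR adjusted p = 0.0101). The call was lost without ND replicate 3, where the log2 fold change was 0.30 and the adjusted p-value of edgeR's test 0.053, within a range of 0.00206 to 0.053 over the 8 fits that left out 1 brain each.

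*Unc5a* (ENSMUSG00000025876, chromosome 13, 55097224 to 55153831), a netrin receptor of the repulsive kind, went the other way. It was at 53.4, 52.1, 56.3 and 57.1 CPM in the CDD brains and at 70.04, 65.96, 71.5 and 66.9 CPM in the ND brains, so the 4 CDD values lay close together and below every ND value. Means were 54.7 ± 2.37 and 68.6 ± 2.60 CPM (SD, n = 4 each), and the log2 fold change was -0.33 (SE 0.048, edgeR adjusted p = 0.000902), the smallest adjusted p-value of the 41 genes. With each brain left out in turn it stayed between -0.35 and -0.30 and was called in all 8 fits. *Hk3* overlaps it on the other strand at 2.5% of its CPM. Whether counting used the strand is not stated, so how reads in the stretch that both genes share were counted is not known. Set against each other per length, *Dcc* stood at 1.61 ± 0.155 times the FPKM (the count scaled to gene length and library) of *Unc5a* in CDD brains and at 1.03 ± 0.0936 times in ND brains (SD, n = 4 each), with values of 1.405 to 1.78 against 0.948 to 1.17. This ratio was chosen after both changes had been seen and was not tested.

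The paralogs of these receptors were not called. *Neo1*, which encodes neogenin, a receptor of netrins and of repulsive guidance molecules, was at 281, 301, 304 and 341 CPM in CDD and 307, 312, 321 and 316 CPM in ND brains, and the CDD values surrounded the ND values (log2 fold change -0.04). *Unc5d* had a log2 fold change of -0.14 with an adjusted p-value of 0.0723 in edgeR's test, which passed the threshold under a correction for gene length (0.0223) and without CDD replicate 4 (-0.18, 0.0129), in a range of 0.0129 to 0.228 over the 8 fits. *Unc5b*, a receptor also of vessels, had one of 0.07. *Unc5c* had one of 0.14 with the widest spread of the CDD brains, at 45.9, 55.9, 33.5 and 54.2 CPM, against 41.6, 41.6, 45.05 and 43.9 CPM in ND brains. It was called without CDD replicate 3, at 0.27, while without CDD replicate 2 its log2 fold change was 0.05.

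Of the ligands, *Ntn4* (ENSMUSG00000020019, chromosome 10, 93476543 to 93583069), a netrin that binds laminins and occurs in basement membranes, was at 21.6, 21.8, 20.8 and 22.2 CPM in CDD and at 18.5, 16.9, 16.1 and 17.6 CPM in ND brains. The CDD brains spanned a narrow range above all ND brains, at a mean of 21.6 ± 0.612 against 17.3 ± 1.01 CPM (SD, n = 4 each). CDD over ND it came to 0.32 on the log2 scale (SE 0.065, edgeR adjusted p = 0.0053) and was called in all 8 fits with a brain left out. *Ntn1*, the founding attractant made at the floor plate and in the ventricular zone, was at 103, 139, 102 and 126 CPM in CDD and 96.4, 106, 98.8 and 97.6 CPM in ND brains. CDD replicates 2 and 4 were above all ND brains and CDD replicates 1 and 3 were among them, and with a log2 fold change of 0.24 it was not called (edgeR adjusted p = 0.19). It was called in 4 of 11 other settings, among them DESeq2 (adjusted p = 0.041) and edgeR without a filter on low counts (0.000393), with a range of 0.000393 to 0.205. Without CDD replicate 3 it was called, at 0.30 (edgeR adjusted p = 0.0402, 0.0402 to 0.474 over the 8 fits), and without CDD replicate 2 its log2 fold change was 0.15.

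*Ntn3* lay lower in every CDD brain (17.4, 17.99, 18.1 and 16.8 CPM) than in every ND brain (18.8, 18.7, 20.5 and 18.1 CPM) but was not called, with a log2 fold change of -0.12 and values of CDD replicate 3 and ND replicate 4 that were almost equal. *Ntn5* had between 10 and 23 counts per brain, so its log2 fold change of -0.48 had a standard error of 0.33, and no difference was detectable at this depth. The netrin-Gs are lipid-anchored relatives that bind netrin-G ligands rather than Dcc, and neither was called. *Ntng2* was at 87.4, 85.8, 96.5 and 94.5 CPM in CDD and 90.1, 98.9, 95.5 and 98.9 CPM in ND brains (log2 fold change -0.07), with overlap between the diets, and *Ntng1* had a log2 fold change of -0.02.

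In the Slit and Robo family, 1 ligand and 1 receptor rose. *Slit2* (ENSMUSG00000031558, chromosome 5, 48140480 to 48465075), a repellent of the midline, was at 76.2, 79.6, 72.1 and 84.5 CPM in CDD and at 64.1, 66.4, 65.95 and 64.1 CPM in ND brains. The ND values lay within a few CPM of each other and all CDD values were above them, with means of 78.1 ± 5.26 and 65.1 ± 1.21 CPM (SD, n = 4 each). The log2 fold change was 0.26 (SE 0.049, edgeR adjusted p = 0.00348), and it was called in all 8 fits with a brain left out. *Slit1*, the Slit of highest FPKM in these brains, was at 142, 156, 157 and 167 CPM in CDD and 138, 149, 146 and 143 CPM in ND brains. CDD replicate 1 fell among the ND brains, and the log2 fold change of 0.11 was not called (edgeR adjusted p = 0.156), though it was without CDD replicate 1 (0.15, 0.0493, in a range of 0.0493 to 0.381 over the 8 fits). *Slit3* had a log2 fold change of -0.16 and overlapping values.

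*Robo3* (ENSMUSG00000032128, chromosome 9, 37326965 to 37344542), a divergent Robo that commissural axons of the hindbrain and spinal cord need to cross the midline, had the largest rise of the called guidance genes. It was at 37.2, 32.2, 29.5 and 28.2 CPM in CDD and at 22.7, 25.6, 22.5 and 23.3 CPM in ND brains. Here CDD replicate 1 was highest, and the lowest CDD brain was above the highest ND brain. Means of 31.8 ± 3.96 and 23.5 ± 1.46 CPM (SD, n = 4 each) gave a log2 fold change of 0.43 (SE 0.078, edgeR adjusted p = 0.00302), between 0.35 and 0.48 with a brain left out and called each time. The other Robos were near 0: *Robo1* and *Robo2*, the main receptors of Slits on axons, at 0.03 and 0.02, and the endothelial *Robo4* at 0.05. *Robo1* was at 280.4, 298, 304 and 348 CPM in CDD and 294, 311, 299 and 304 CPM in ND brains, with the lowest and the highest of the 8 values both in CDD brains. The *Robo3* gene lies tail to tail with *Robo4*, 553 bases apart in the authors' positions, and the difference between their log2 fold changes (0.43 and 0.05) was not tested.

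Of the 9 EphA receptors, *Epha3* and *Epha4* rose and *Epha8* fell. *Epha3* (ENSMUSG00000052504, chromosome 16, 63363897 to 63684538), a receptor with high affinity for ephrin-A5, was at 111, 108, 105 and 129 CPM in CDD and at 92.2, 96.8, 94.8 and 93.03 CPM in ND brains, without overlap and with CDD replicate 4 highest. Its means were 113 ± 10.7 and 94.2 ± 2.05 CPM (SD, n = 4 each) and its log2 fold change 0.26 (SE 0.054, edgeR adjusted p = 0.00651), called in all 8 fits with a brain left out. *Epha4* (ENSMUSG00000026235, chromosome 1, 77343822 to 77491725) binds ephrins of both classes and is required for the corticospinal tract. It was at 228, 217, 229.8 and 269 CPM in CDD and at 203, 206, 191 and 202 CPM in ND brains, again without overlap and with CDD replicate 4 well above the rest. The log2 fold change was 0.24 (SE 0.057, means 236 ± 22.7 and 200.5 ± 6.64 CPM, SD, n = 4 each, edgeR adjusted p = 0.0155). Its call was lost without ND replicate 1 (0.24, edgeR adjusted p = 0.053), ND replicate 3 (0.21, 0.0866) or ND replicate 4 (0.24, 0.0529), in a range of 0.0115 to 0.0866 over the 8 fits.

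*Epha8* (ENSMUSG00000028661, chromosome 4, 136656730 to 136684127), known from the superior colliculus and its projections, was at 30.6, 33.3, 37.7 and 30.3 CPM in CDD and at 39.3, 40.6, 45.7 and 42.3 CPM in ND brains. All CDD brains were below all ND brains, the closest being CDD replicate 3 and ND replicate 1. The means were 32.98 ± 3.42 and 41.97 ± 2.74 CPM (SD, n = 4 each), and the log2 fold change was -0.35 (SE 0.070, edgeR adjusted p = 0.00575), called in all 8 fits with a brain left out. *Epha8* and the EphB receptor gene *Ephb2* lie 93430 bases apart on the same strand of chromosome 4, and their log2 fold changes had opposite signs (-0.35 and 0.19).

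The 6 other EphA receptors were not called. *Epha5* lay higher in every CDD brain (223, 225, 225 and 260.2 CPM) than in every ND brain (210.0, 214, 206 and 215 CPM), with a log2 fold change of 0.14 (edgeR adjusted p = 0.0848). Its CDD replicate 4 stood far above the other CDD brains, and without that brain the log2 fold change was 0.08. *Epha10*, whose product lacks an active kinase, was at 20.9, 27.1, 23.3 and 21.8 CPM in CDD and 27.3, 24.04, 26.9 and 26.8 CPM in ND brains (log2 fold change -0.17). Its CDD replicate 2 lay among the ND brains, and without that brain it was called, at -0.25 (edgeR adjusted p = 0.0334, 0.0334 to 0.362 over the 8 fits). *Epha7*, which is well expressed in the cortex, had nearly equal means in CDD and ND brains (80.02 ± 2.45 and 79.98 ± 3.88 CPM, SD, n = 4 each), a log2 fold change of 0.00 with a standard error of 0.045. *Epha1*, *Epha2* and *Epha6* were at or under 5.69 CPM in every brain, with log2 fold changes of 0.39, 0.07 and -0.13 and standard errors of 0.25, 0.13 and 0.13.

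Of the ephrin-As, which are anchored in the membrane by a lipid and bind EphA receptors, 1 of 5 fell. *Efna3* (ENSMUSG00000028039, chromosome 3, 89221206 to 89230272) was at 17.6, 22.1, 19.96 and 17.2 CPM in CDD and at 26.9, 22.2, 25.5 and 23.7 CPM in ND brains. The CDD brains were lower, but CDD replicate 2 and ND replicate 2 nearly touched. *Efna3* had a log2 fold change of -0.36 (SE 0.082, means 19.2 ± 2.27 and 24.6 ± 2.09 CPM, SD, n = 4 each, edgeR adjusted p = 0.0126). The call was lost without ND replicate 1 (-0.31, edgeR adjusted p = 0.0621) or ND replicate 3 (-0.34, 0.0601), with 0.00456 to 0.0621 over the 8 fits. An antisense gene, *Gm15998*, overlaps it at 3.57% of its CPM. *Efna3* stands between *Efna1* and *Efna4* on the same strand of chromosome 3, 32756 and 10424 bases from them, and these neighbors had log2 fold changes of 0.04 and 0.01. *Efna2*, the ephrin-A of highest FPKM, was at 50.4, 52.2, 54.1 and 51.5 CPM in CDD and 54.00, 50.3, 51.3 and 52.1 CPM in ND brains, a log2 fold change of 0.00 whose sign changed under small changes of the analysis. *Efna5*, a ligand of topographic maps, had one of 0.06.

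Among the ephrin-Bs, which span the membrane and bind EphB receptors, *Efnb3* was called lower by a narrow margin. *Efnb3* (ENSMUSG00000003934, chromosome 11, 69444918 to 69451031) is a midline repellent of corticospinal axons and had the highest FPKM of the 41 genes. It was at 201, 216, 223 and 223 CPM in CDD and at 236, 234, 238 and 245 CPM in ND brains, with all CDD brains below all ND brains. Its log2 fold change was -0.14 (SE 0.045, means 216 ± 10.3 and 239 ± 4.76 CPM, SD, n = 4 each, edgeR adjusted p = 0.0498). It kept the call in 2 of 8 fits with a brain left out, those without CDD replicate 3 or CDD replicate 4, and had adjusted p-values of 0.0237 to 0.176 in edgeR's test and log2 fold changes of -0.16 to -0.11 over all 8. The call was also lost with RLE scaling (-0.14, edgeR adjusted p = 0.0657), a correction for gene length (-0.12, 0.0845) and the authors' FPKM (-0.14, 0.0931 in limma), and was kept in 7 of 11 other settings. *Efnb1* and *Efnb2* had log2 fold changes of 0.11 and -0.09 and were not called. *Efnb2* is also the ephrin of arteries, and its ND brains spanned 236 to 239 CPM while its CDD brains spanned 205 to 238 CPM.

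None of the 5 EphB receptors was called with edgeR, though 2 had an unadjusted p-value under 0.05. *Ephb2*, a receptor of commissural axons, was at 317, 342, 332 and 399.8 CPM in CDD and at 298, 314, 305 and 302 CPM in ND brains. Every CDD brain was above every ND brain, and CDD replicate 4 stood apart at the top. Its log2 fold change of 0.19 (SE 0.060) had an adjusted p-value of 0.0521 in edgeR's test, just over the threshold, and DESeq2 called it (0.0249), with 0.00465 to 0.132 over 11 other settings. It was also called without CDD replicate 1 (0.24, edgeR adjusted p = 0.0292) or CDD replicate 3 (0.22, 0.0402), in a range of 0.0292 to 0.16 over the 8 fits. *Ephb6*, whose kinase is inactive, had a log2 fold change of -0.13 (edgeR adjusted p = 0.118) and was called without CDD replicate 3 (-0.16, 0.0406, in a range of 0.0406 to 0.375). *Ephb1*, *Ephb3* and *Ephb4* were at -0.01, 0.05 and 0.07. *Ephb3*, at 30.1, 38.1, 30.3 and 35.02 CPM in CDD and 31.7, 35.2, 31.1 and 31.3 CPM in ND brains, turned to -0.02 without CDD replicate 2.

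**Figure D2:**
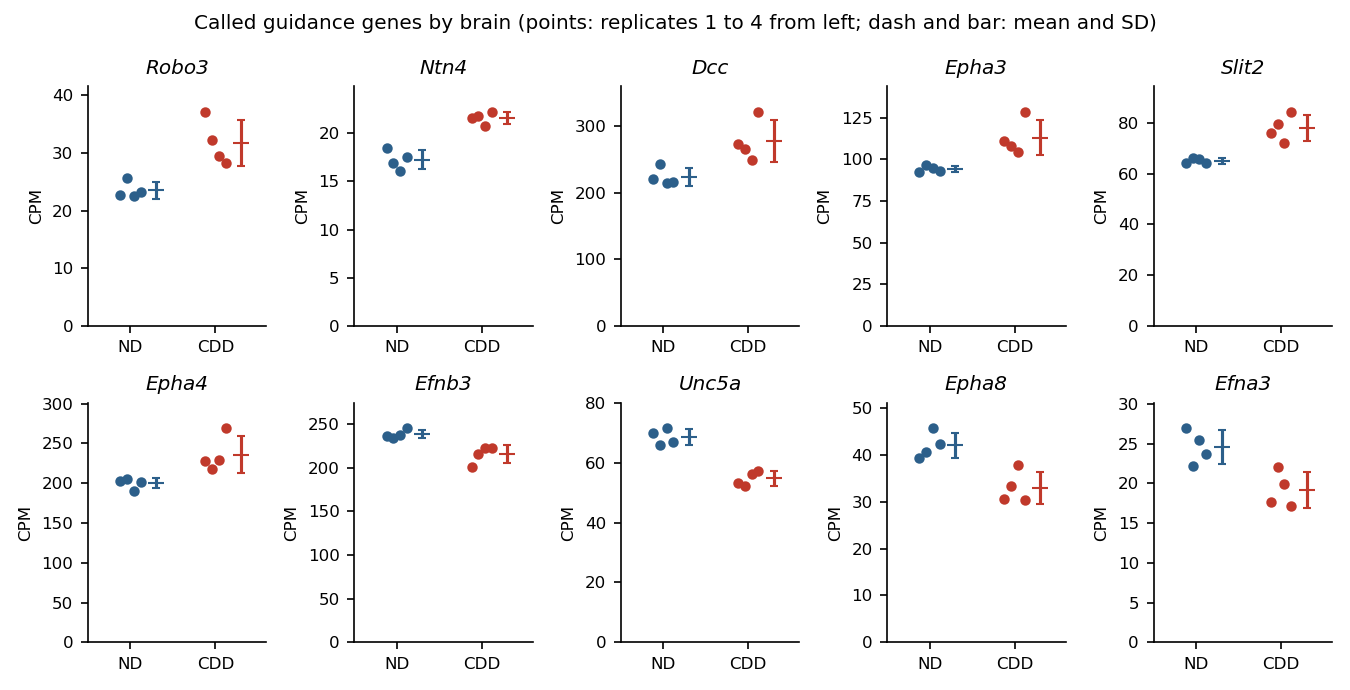
CPM (vertical axis, from 0) of the 10 called guidance genes in each of 4 ND (blue) and 4 CDD (red) brains, with the mean and SD beside the points. The diets do not overlap in any of the 10 panels, and the gap is smallest for *Efna3*, at 22.1 against 22.2 CPM.

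Compared per length, the guidance genes covered more than 2 orders of magnitude, from *Ntn5* at 0.192 and *Epha1* at 0.197 FPKM to *Efnb3* at 71.02 FPKM over the 8 brains. The highest levels after *Efnb3* were those of *Efnb1* at 36.9 FPKM, *Neo1* at 35.4 FPKM and *Efnb2* at 33.4 FPKM. The ephrin-Bs were thus the most abundant ligands, and the top receptors of each kind were *Epha4* at 26.99 FPKM, *Ephb2* at 25.8 FPKM, *Robo1* at 18.4 FPKM and *Unc5a* at 14.7 FPKM. The called genes ran from *Slit2* at 2.80 FPKM, *Robo3* at 4.02 FPKM and *Ntn4* at 5.17 FPKM through *Epha8* at 7.91, *Efna3* at 8.94, *Epha3* at 11.9 and *Dcc* at 18.9 FPKM up to *Efnb3*. The guidance genes of lower FPKM than *Slit2* were not called. Summed FPKM by family was 76.2 ± 5.0 in CDD and 70.3 ± 0.672 in ND brains for the EphA receptors, and 28.6 ± 1.07 and 32.04 ± 0.540 for the Unc5 receptors (SD, n = 4 each). For the ephrin-Bs it was 138 ± 7.53 and 144 ± 1.98 (SD, n = 4 each). The sums follow their most abundant members and were not tested.

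**Figure D3:**
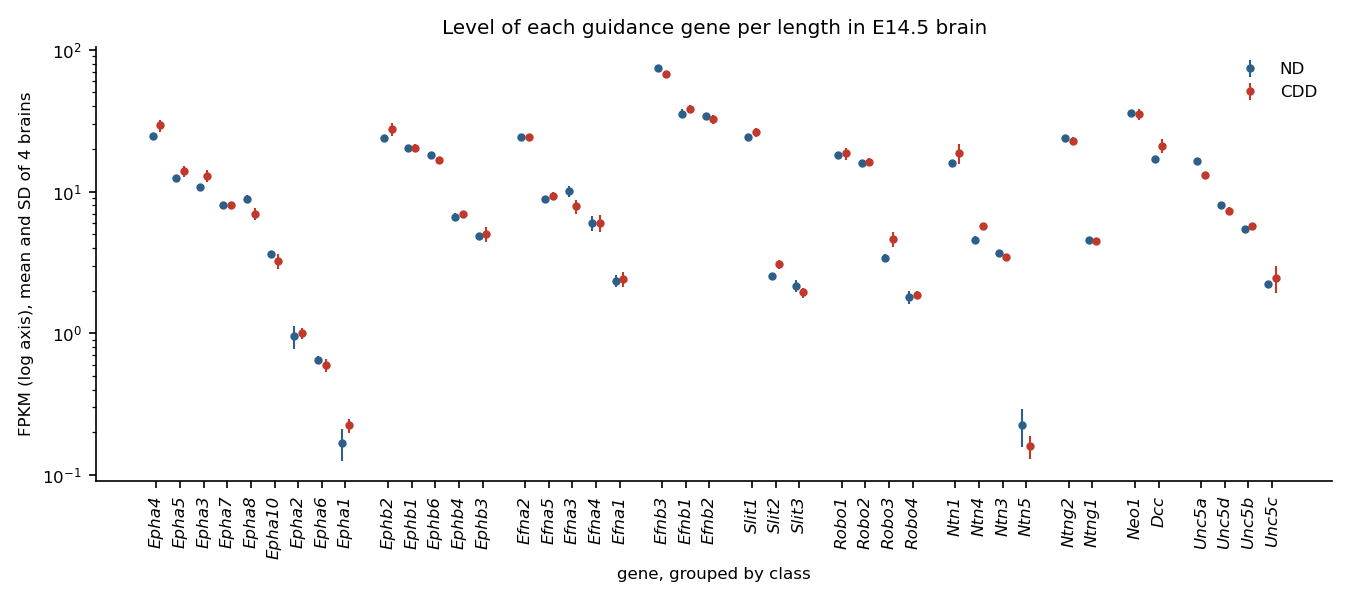
FPKM (vertical axis, log scale) of each guidance gene, grouped by family and ordered by level within it, as mean and SD of 4 ND (blue) and 4 CDD (red) brains. Levels run from about 0.192 FPKM for *Ntn5* to 71.0 FPKM for *Efnb3*, and the 2 diets lie close together for nearly every gene.

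The called genes split by the length that the authors list, a pattern seen after the calls were known. That length, which the authors' FPKM uses, is not the span between a gene's listed positions. It is 13171 bases for *Dcc* and 4168 bases for *Unc5a*, both of which span far more by their positions. Of the 25 guidance genes with a listed length of 5000 bases or more, 5 rose (20%) and 0 fell in edgeR's test. Among them *Epha10* and *Unc5d* had an unadjusted p-value under 0.05 in that test, and DESeq2 called 0 of the 25 lower as well. Of the 16 with a shorter listed length, 1 rose (6.25%) and 4 fell (25%). The exception among the rises was *Ntn4*. Of all genes tested, 7.37% of the longer genes were called higher and 5.55% lower, against 2.56% and 4.06% of the shorter ones, with medians of 0.02 and -0.02 on the log2 scale. With a correction for gene length in the fit, 9 of the 10 calls were kept, *Efnb3* was lost (edgeR adjusted p = 0.0845), and *Ephb2* and *Unc5d* were gained. *Slit2* has the largest listed length of the 41, and its rise was 0.22 instead of 0.26 in that fit. The fall of *Unc5a* was -0.31 instead of -0.33.

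**Figure D4:**
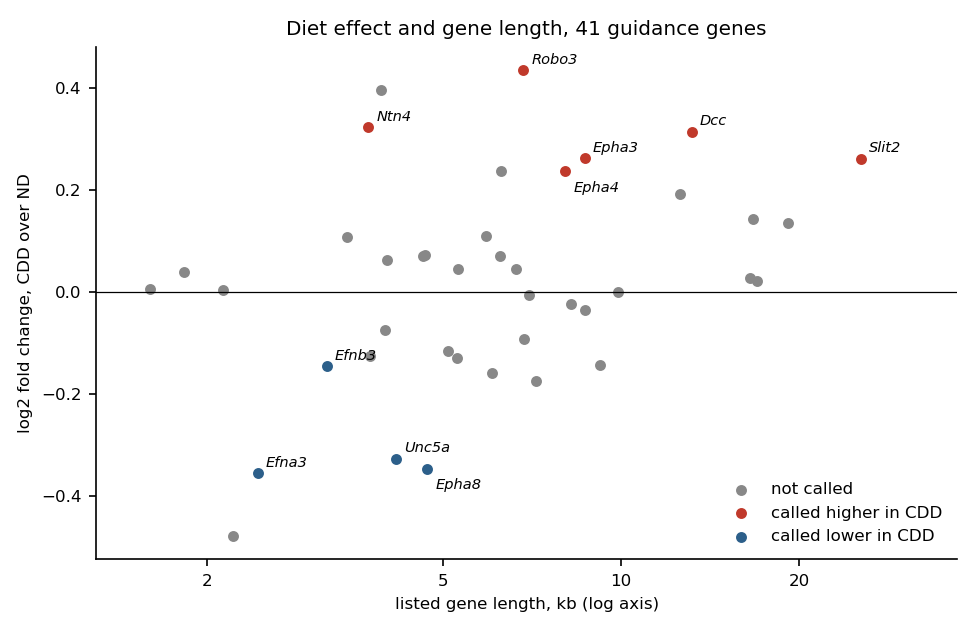
Log2 fold change of CDD over ND (vertical axis) against the listed gene length in kb (horizontal axis, log scale) for the 41 guidance genes, with the called genes named. The called falls (blue) lie at short listed lengths and 5 of the 6 called rises (red) at listed lengths of 5000 bases or more.

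Single brains stood out in some of these genes. CDD replicate 4 was the highest of the 8 brains in 13 of the 41 guidance genes, and 21.7% of all genes were highest there. They include *Dcc*, *Epha3*, *Epha4*, *Slit2* and *Ntn4*, and without that brain all of them were still called, with log2 fold changes of 0.23 for *Dcc*, 0.19 for *Epha3* and 0.17 for *Epha4*. The median coefficient of variation over the 41 genes was 7.7% in CDD and 4.45% in ND brains. Without CDD replicate 2, the brain with counts of caudal genes, 10 guidance genes were again called: *Efnb3* was lost, *Epha10* was gained, and *Robo3* kept a log2 fold change of 0.43.

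Marker genes were summed for the main cell types of the brain. Neural progenitor markers were higher in CDD brains (5 of 10 called higher, 0 lower), at 2077 to 2405 CPM against 1842 to 1962 CPM in ND brains, and were also highest in CDD replicate 4. Floor plate markers, of the midline cells that make *Ntn1* and Slits, were at 194 to 208 CPM against 176 to 183 CPM, with 2 of 6 called higher (*Shh* and *Lmx1a*). Postmitotic neuron markers were at 6428 to 7233 against 6573 to 6819 CPM, with 0 of 10 called higher and 1 lower (*Snap25*). Endothelial markers were at 285 to 303 against 302 to 322 CPM and mural cell markers at 169 to 179 against 181 to 198 CPM, each with 1 gene called lower, while *Robo4*, *Unc5b*, *Ephb4* and *Efnb2*, guidance genes of vessels, were not called. Forebrain markers were lowest in CDD replicate 2 (908 CPM) and at 986 to 1111 CPM in the other brains, with 1 of 8 called higher. Of the meningeal fibroblast list, 1 of 7 was called higher and 3 lower. Of the choroid plexus list 1 of 6 was called higher, and of the macrophage list 2 of 6 were called lower. Of the red blood cell list, the embryonic globin genes *Hbb-y* and *Hba-x* were called higher (2 of 7), while the other 5 genes had log2 fold changes below 0 and were not called. The median of that list was -0.62, and its sum, which adult globins make up for the most part, was 758 to 1415 CPM in CDD and 822 to 2982 CPM in ND brains. Of the 4 liver genes, 1 passed the filter and was not called: *Ttr*, which is also on the choroid plexus list. *Alb*, *Afp* and *Apoa1* reached at most 0.302 CPM (*Apoa1* in CDD replicate 3). The part of these cell types and of single brains in the guidance gene changes was not tested.

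A list of 62 other genes of these pathways, chosen with earlier results of these data known, holds co-receptors, adaptors and effectors, and all were tested. In it 9 genes were called with edgeR, beside 8.83% of all genes, 5 higher and 4 lower, and the median log2 fold change was 0.02 with 39 genes above 0. *Grb10*, an adaptor of receptor tyrosine kinases, was at 280.1, 268, 249 and 297 CPM in CDD and 227, 232, 209.5 and 209 CPM in ND brains, without overlap, and its log2 fold change was 0.32 (edgeR adjusted p = 0.00221). *Ngef*, which encodes ephexin, an exchange factor that acts downstream of EphA receptors, was at 14.2, 13.2, 15.96 and 12.4 CPM in CDD and 19.4, 17.01, 18.6 and 18.4 CPM in ND brains, also without overlap. Its log2 fold change was -0.39 (edgeR adjusted p = 0.00575). These 2 genes were called in all 8 fits with a brain left out.

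The remaining called partners changed less. *Nfatc4* rose by 0.20 on the log2 scale, *Enah* and *Rgs3* by 0.18 each, and *Sdcbp*, which encodes syntenin, a scaffold of ephrin-Bs, by 0.16. *Trim67*, a relative of a Dcc-binding ubiquitin ligase, fell by 0.20 on the log2 scale, the actin-binding *Ablim1* by 0.19 and the Dcc relative *Igdcc4* by 0.16. Their adjusted p-values in edgeR's test were 0.0140 to 0.0462. Of the partner list, 1 gene was called higher without CDD replicate 2, ND replicate 1, ND replicate 3 or ND replicate 4, and 3 without CDD replicate 1, CDD replicate 4 or ND replicate 2. Of the genes called lower, 1 was left without ND replicate 1, ND replicate 3 or ND replicate 4, and 2 without CDD replicate 2.

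To show the regulatory sequence of genes that moved in opposite directions, the 250 bases before the RefSeq start are given for the 2 largest called rises and the 2 largest called falls among genes with a single start in RefSeq (GRCm38.p6). Of the 41 genes, 36 matched a RefSeq window. Capitals mark GGGCGG on either strand, the letters of a GC box, and CANNTG, an E-box, and matches that overlap or adjoin run together. The windows are those of *Robo3* (chr9:37433176-37433425, minus strand), *Ntn4* (chr10:93640799-93641048, plus strand), *Epha8* (chr4:136956817-136957066, minus strand) and *Unc5a* (chr13:54949161-54949410, plus strand), each 5′ to 3′ toward the gene.
Robo3: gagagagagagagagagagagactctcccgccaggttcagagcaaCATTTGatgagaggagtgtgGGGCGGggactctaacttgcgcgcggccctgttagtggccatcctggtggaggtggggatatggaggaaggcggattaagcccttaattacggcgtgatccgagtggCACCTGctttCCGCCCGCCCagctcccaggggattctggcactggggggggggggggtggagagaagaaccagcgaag
Ntn4: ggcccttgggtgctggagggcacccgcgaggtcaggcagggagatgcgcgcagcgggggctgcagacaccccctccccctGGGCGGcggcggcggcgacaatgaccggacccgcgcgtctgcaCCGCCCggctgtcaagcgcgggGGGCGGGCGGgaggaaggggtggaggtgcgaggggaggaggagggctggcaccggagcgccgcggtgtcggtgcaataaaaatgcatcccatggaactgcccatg
Epha8: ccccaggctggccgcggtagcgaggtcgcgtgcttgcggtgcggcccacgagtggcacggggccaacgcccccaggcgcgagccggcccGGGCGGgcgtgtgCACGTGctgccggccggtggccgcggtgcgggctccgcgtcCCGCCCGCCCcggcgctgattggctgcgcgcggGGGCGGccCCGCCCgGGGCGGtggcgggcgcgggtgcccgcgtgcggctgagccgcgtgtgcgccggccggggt
Unc5a: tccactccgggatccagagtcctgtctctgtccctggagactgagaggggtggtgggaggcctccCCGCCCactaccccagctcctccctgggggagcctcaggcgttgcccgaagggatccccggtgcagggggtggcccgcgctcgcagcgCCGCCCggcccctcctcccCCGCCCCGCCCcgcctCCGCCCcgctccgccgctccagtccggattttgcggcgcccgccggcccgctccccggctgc

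These 4 windows are rich in G and C, at 61.2% in *Robo3*, 73.2% in *Ntn4*, 76.8% in *Unc5a* and 84% in *Epha8*, and hold 12, 26, 25 and 46 CpG dinucleotides. GGGCGG was found 3 times in *Robo3*, 4 times in *Ntn4*, 5 times in *Unc5a* and 6 times in *Epha8*, so it was present in genes that rose and in genes that fell. CANNTG was found 2 times in *Robo3* and 1 time in *Epha8*, and in neither *Ntn4* nor *Unc5a*. The 36 guidance genes that matched have 41 windows in all, of which 68.3% held GGGCGG and 43.9% CANNTG. Of all 32851 windows of this length, 32.7% and 66.2% did. TATAAA and CCAAT, searched on both strands, were in 4.88% and 36.6% of guidance gene windows and in 12.4% and 33.8% of all windows. The median number of CpG dinucleotides was 17 in the former and 6 in all windows. These are matches of letters in 1 window per start and say nothing of binding.

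The calls differed in how far they held. *Robo3*, *Ntn4*, *Epha8* and *Unc5a* were called in all 8 fits with a brain left out and in all 11 other settings of the analysis, and *Slit2* and *Epha3* in the 8 fits but not from the authors' FPKM (adjusted p = 0.0666 and 0.0576 in limma). The number of guidance genes called was 6 without ND replicate 3, against 10 with all brains, and 14 without CDD replicate 3. Those called lower were 2 without ND replicate 1 or ND replicate 3, against 4.

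**Figure D5:**
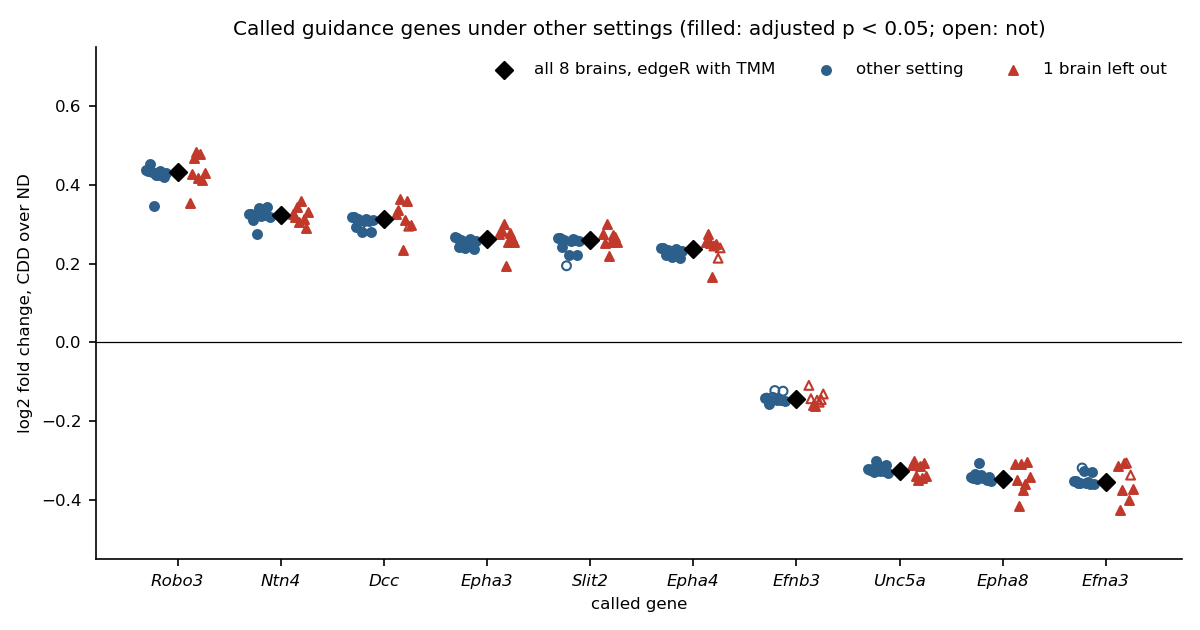
Log2 fold change of CDD over ND (vertical axis) of the 10 called guidance genes with all 8 brains (black), in 11 other settings (blue) and with each brain left out (red). Filled marks passed an adjusted p-value of 0.05 and open marks did not, and every mark keeps the sign of the black one, with *Efnb3* nearest to 0.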

How the data were processed

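Poly-A RNA of 8 E14.5 whole brains was sequenced, and samples were grouped by maternal diet as labeled. Deposited by the authors were the unscaled counts of each brain, a signal (the count divided by 1 size factor per library) and the FPKM made from that signal and the listed gene length. Their comparison was deposited as a log2 fold change with p-values, which were not used, and neither were 3 shorter lists of the same comparison. The submitters' processing notes name HISAT2 2.0.5, featureCounts 1.5.0-p3 and DESeq2 1.20.0. The genome build is not given in the sources used here, and 2.14% of gene identifiers shared with GENCODE M21 have the same start there. Gene positions are therefore the authors' own on an unnamed build, while promoters are from RefSeq (GRCm38.p6).

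Low counts were removed with filterByExpr, which left 19367 genes. These were TMM-scaled and compared by the robust quasi-likelihood test of edgeR 4.0.16 (R 4.3.3), with diet as the single term and Benjamini-Hochberg adjustment over all genes. CPM refers to the TMM-scaled library, and levels of different genes are compared only in FPKM. Standard errors were derived from the fold change and the test statistic. No pair of brains had counts within sampling noise of each other (chi-square per degree of freedom 3.76 to 22.5 within a diet), and the common biological coefficient of variation was 0.0814. Counts were also simulated with the same dispersion for every gene (19161 genes tested). In them edgeR recovered 13 of 67 genes with a log2 change of 0.25, 56 of 66 with 0.5 and 63 of 66 with 1. It called 7 of 18961 unchanged genes.

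Alternatives were DESeq2 1.42.0, limma-voom (limma 3.58.1), RLE and upper-quartile scaling, all genes unfiltered, a minimum of 10 counts per brain, a gene length offset (loess span 0.3), the replicate number as a block, both together, *Xist* as covariate, an adjusted p-value under 0.01, log2 of the authors' FPKM plus a pseudocount of 1 with limma, and each brain left out. The guidance genes, the partner list and the marker lists were chosen with earlier results of these data known. Values in every brain are given for called members, for the member of highest FPKM of each family and for members with 1 brain far from the others. Log2 fold changes are given for members with an unadjusted p-value under 0.05, and called partner genes are named. Values of further members were added after they had been seen. Figures were drawn with matplotlib 3.10.9 under Python 3.11.15. KO brains, KO endothelial cells and lipids of the study were not analysed here.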

Additional observations from a re-analysis of the deposited data

Results flagged for a closer look

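In each of 82 groups (41 genes in 2 diets), the highest or lowest of the 4 brains was compared with the others by Dixon's test on log2 CPM, and such a distant brain was found in 4 of them, where about 4.1 would by chance (1 in 20 groups). *Epha5* was at 8.02 in CDD replicate 4, above the other CDD brains (260.2 against 223 to 225 CPM). *Epha10* was at 4.59 in ND replicate 2, lowest by a wide gap (24.0 against 26.8 to 27.3 CPM). *Epha6* was at 1.67 in the same brain, also lowest (3.13 against 3.56 to 3.59 CPM), and *Ephb3* was at 5.14 there, highest (35.2 against 31.1 to 31.7 CPM). None of these genes was called with edgeR, at unadjusted p-values of 0.011, 0.033, 0.342 and 0.546, and *Epha5* and *Epha10* were called under 1 alternative each.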

How the results depend on the processing

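With the authors' FPKM, 519 genes were called in place of 1710, and 2 guidance genes were higher and 2 lower in place of 6 and 4, with 1 partner gene higher and 1 lower in place of 5 and 4. At an adjusted p-value under 0.01, 2 guidance genes were lower, with 1 partner gene in each direction, and without a filter on low counts 7 partner genes were lower. With each brain left out, guidance genes called numbered 4 to 9 higher and 2 to 5 lower, partner genes 1 to 5 higher and 1 to 6 lower, and all genes 471 (without ND replicate 3) to 2495 (without CDD replicate 3). Leaving out a brain also leaves fewer samples, and why the counts differ was not tested. Of the single-gene values under these settings, 387 kept direction and side of the threshold, 20 passed it newly, 21 missed it and 9 changed sign, all of the last near 0: *Efna2* (-0.0009 with upper-quartile scaling, -0.0143 to 0.0254 with a brain left out, below 0 without CDD replicate 3, ND replicate 2 or ND replicate 3), *Ephb3* (-0.0227 to 0.0952, below 0 without CDD replicate 2), *Neo1* (-0.0906 to 0.0086, above 0 without CDD replicate 1) and *Robo1* (-0.0090 with the length offset, -0.0104 with the replicate block too, and -0.0376 to 0.0740 with a brain left out, below 0 without CDD replicate 4). Nothing in the labels says that replicate numbers pair the brains, and the data did not settle it: deviations of same-numbered brains correlated at 0.105, -0.133, 0.117 and 0.232, where all 4 would have to exceed 0.1 to be treated as pairs, and 6 of 8 brains correlated best with their own number. With the replicate block, 8 guidance genes were higher and 4 lower, *Ephb2* (adjusted p = 0.0331 in edgeR) and *Ntn1* (0.0199) being gained, partner genes numbered 5 and 5, and 1812 genes were called in all. No setting moved the median of all genes by more than 0.0142 on the log2 scale. In the simulation most changes of 0.25 were missed. It gave every gene the same dispersion and changed a smaller share of genes than was called in these data. Its recovery rate therefore does not carry over to the guidance genes, and those not called still cannot be read as unchanged.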
